A study of Homo sapiens with 12 samples.

Results

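FX1, a small molecule made to block the transcriptional repressor BCL6, was compared with its vehicle DMSO in the GFP-high gate of Raji, an established line from a human Burkitt lymphoma, a tumour of germinal centre B cells. The comparison uses 6 of the 12 libraries of the series, 3 labelled GFP-high with FX1 and 3 labelled GFP-high with DMSO, all collected at 24 h and taken by their gate and treatment labels. The titles call the DMSO samples untreated. All 12 libraries, including the 6 from the GFP-low gate, carry the genotype label Smarca4+/+, and the series' design text speaks of SMARCA4 protein degraded through an auxin-inducible degron, a tag that marks a protein for destruction when auxin is added. SMARCA4 is the ATPase of the SWI/SNF chromatin remodeller. GFP-high and GFP-low are called gates here after the titles, and how GFP was read, how it relates to SMARCA4 protein, the dose of FX1, any auxin given and whether the line is a single clone are not given in the sources used here.

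BCL6 holds germinal centre B cells in their state by recruiting corepressors to its target genes, and its targets include PRDM1, the gene of BLIMP1, a regulator of plasma cells. NRF2, held back by KEAP1, switches on antioxidant, iron storage and detoxifying genes when cells meet electrophiles or oxidants. SREBP factors drive sterol synthesis genes, HIF factors drive glycolytic genes, and the DREAM and MuvB complexes time the expression of mitotic genes.

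Total gene counts of the 6 libraries lay between 24146581 and 37121160. The labels do not state whether replicates were grown as separate cultures, so p-values here measure only the spread among replicate libraries, and this spread may be technical. That spread was small, with a common biological coefficient of variation of 1.67%, and pairs of libraries of a group differed by 1.67 to 1.94 times the variance of random sampling of reads. All 14 B-cell markers checked passed the filter on low counts and took 0.355% ± 0.0019 of counts with DMSO and 0.319% ± 0.00114 with FX1 (SD, n = 3). Of the 15 T and NK cell markers 6 passed the filter and 5 of these fell, and together the 15 took 0.00252% ± 1.29e-05 and 0.000876% ± 5.61e-06, with CD8A at 0 counts in all 6 libraries. LCK, a kinase of T cells that some B-cell lymphomas express, was among the fallers, at 16.4, 15.2 and 16.4 CPM with DMSO and 4.32, 3.79 and 4.12 CPM with FX1. Myeloid markers took 0.000237% ± 1.25e-05 and 0.000265% ± 3.29e-05, with S100A8, FCGR3A and CD163 at 0, and epithelial and stromal markers 0.000905% ± 7.27e-05 and 0.000925% ± 3.83e-05, with KRT18, KRT19 and COL3A1 at 0. In bulk RNA, fewer cells with a transcript and less transcript per cell cannot be told apart.

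Of 17859 genes tested with edgeR's quasi-likelihood test, 12224 (68.4%) differed between FX1 and DMSO at a Benjamini-Hochberg adjusted p under 0.05. This is what "called" means here, and "rose" and "fell" are used of called genes alone. With FX1, 33.8% of tested genes were higher and 34.6% lower, and the median log2 fold change over all tested genes was -0.009. Libraries were scaled by TMM, which places most genes near no change, so this balance is partly set by the scaling. A shift shared by all genes would not show. Called genes at least 2-fold higher made up 5.89% of tested genes and those at least 2-fold lower 11.1%. Because 68.4% of all genes were called, the direction and size of a list's changes say more than the number of its members called. Among protein-coding genes the shares were 41.4% higher and 35.4% lower, and in the highest of 4 equal groups by mean level 48.4% and 39.6%. The 3 FX1 values and the 3 DMSO values did not overlap for 12544 genes (70.2%).

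**Figure D1:**
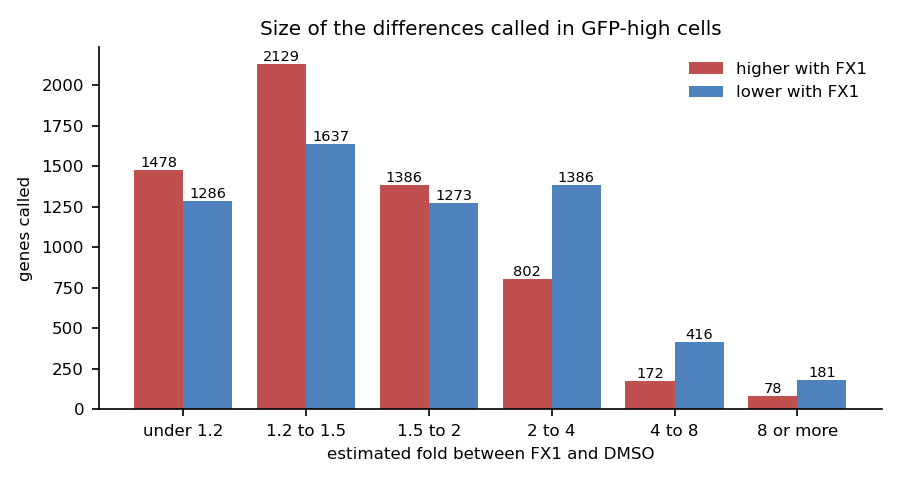
Number of genes called in GFP-high cells (vertical axis) by the size of the estimated fold between FX1 and DMSO (horizontal axis), separately for genes higher and lower with FX1. Small differences predominate among the risers, with 2129 between 1.2-fold and 1.5-fold, and the fallers outnumber the risers from 2-fold upward, 181 against 78 at 8-fold or more.

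Many of the differences were small. Of the genes that rose, 24.4% did so by less than 1.2-fold and 35.2% by 1.2-fold to 1.5-fold, and of the genes that fell the same classes held 20.8% and 26.5%. Falls of 8-fold or more numbered 181, against 78 rises of that size. The excess of large falls lay mostly among genes at low levels. In the lowest of 4 equal groups by mean level 1069 genes fell and 580 rose by at least 2-fold. In the highest group 87 fell and 69 rose by that much. Tested against a floor of 1.5-fold, 3674 genes passed, 1454 higher and 2220 lower.

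Several noncoding classes had more fallers than risers with FX1. Of 1267 antisense genes tested 46.9% fell and 16.9% rose (median log2 fold change -0.48), and of 1090 lincRNA genes 41.1% fell and 21.0% rose (median -0.36, or -0.22 after correction of each library for GC content and gene length). Small nucleolar RNA genes, which guide the modification of ribosomal RNA, fell in 71 and rose in 15 of 156 cases, with a median of -0.48 that was -0.09 after that correction. Sense intronic genes (89 higher and 85 lower of 427) and miscellaneous RNA genes (36 and 31 of 240) were near balance, and microRNA gene entries went the other way, with 45 of 172 higher and 26 lower. Whether reads were counted by strand is not stated, so reads of an antisense gene and its partner cannot be told apart, and short RNAs below the usual fragment length are poorly measured by this kind of library. The calls also varied with base composition: in the lowest of 4 equal groups by transcript GC content 26.4% rose and 41.7% fell, and in the highest group 46.1% rose and 26.1% fell. With a smooth trend on GC content and length removed from each library, 6509 genes rose and 5534 fell. The medians of 11 of the 58 gene lists moved by at least 0.1. Values under that setting are given below for some lists only, and lists without them were not always stable. The selenoprotein median went from 0.14 to 0.34, the proteasome median from 0.20 to 0.32 and the clock gene median from 0.488 to 0.305.

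The target of the inhibitor and its partners were examined first. BCL6 RNA (ENSG00000113916.18, hg38 chromosome 3, 187721377 to 187745725) stood at 400.3, 401 and 399 CPM (read counts scaled to library size) in the DMSO libraries in replicate order and at 198, 203 and 196 CPM in the FX1 libraries, a log2 fold change of -1.01 ± 0.018 (SE). Values in this form, with n = 3 in each group, are log2 fold changes with their SE throughout, and CPM values with ± are means with the SD. This SE is the size of the log2 fold change divided by the square root of the test's F statistic. Its estimate of the spread comes from the fit over all 12 libraries and not from the 6 compared alone. All 3 FX1 libraries lay at about the same level, well under the DMSO libraries. PRDM1 moved from 19.3, 20.2 and 18.9 CPM to 78.8, 82 and 80.4 CPM, a log2 fold change of 2.04 ± 0.042, with no overlap between the groups. Of 16 tested BCL6 corepressor genes 10 rose and 2 fell, with a median of 0.22 that dropped to 0.07 once the GC trend was removed. The rises were small: BCORL1, a BCOR paralogue of Polycomb type corepressor complexes, rose by 0.66 ± 0.089, the HDAC-associated GPS2 by 0.49 ± 0.11, CTBP1 by 0.47 ± 0.028 and the NuRD ATPase CHD4 by 0.46 ± 0.035.

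SMARCA4 RNA did not pass the test, at 384, 382 and 376 CPM with DMSO and 386, 389 and 391 CPM with FX1 (log2 difference 0.03 ± 0.015, adjusted p = 0.0771). Its value depended on the processing: with the GC trend removed it was -0.23 and called. SMARCA2, the alternative SWI/SNF ATPase, rose by 0.27 ± 0.031. Over 27 SWI/SNF subunit genes 13 rose and 6 fell with a median of 0.03 (0.00 with the GC trend removed), and none reached 2-fold. Among the largest changes in that complex were those in the small subunit gene BCL7C at 0.99 ± 0.15, BICRA at 0.60 ± 0.067, BCL7B at 0.52 ± 0.054 and the DNA-binding subunit gene ARID1B at 0.46 ± 0.016.

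Chromatin regulators outside SWI/SNF changed in both directions. In the Polycomb group, which keeps genes silent through histone H3 lysine methylation and H2A ubiquitination, 10 of 29 genes rose and 14 fell. PHF19, which brings PRC2 to its sites, dropped from 108 ± 4 CPM to 42.5 ± 1.5 CPM (-1.35 ± 0.033), while the PRC1 genes CBX6, BMI1 and PHC2 rose by 0.95 ± 0.019, 0.58 ± 0.057 and 0.57 ± 0.054. Among 43 histone acetylation and methylation enzymes 21 rose and 15 fell. SETD1B, an H3K4 methyltransferase, went from 45, 49.1 and 48 CPM to 119, 120.3 and 119 CPM (1.33 ± 0.032), and the deacetylase HDAC4 rose by 0.91 ± 0.073. The demethylase KDM4B and the tubulin deacetylase HDAC6 fell, at -0.87 ± 0.033 and -0.90 ± 0.049.

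B-lineage regulators fell more often than they rose, 16 against 8 of 29 tested, with a median of -0.11. IRF4, needed for plasma cell differentiation, was lower with FX1 at 3.94, 5.29 and 3.47 CPM against 11.3, 12.3 and 10.3 CPM (-1.44 ± 0.10), although PRDM1 rose. MYB and BHLHE40 fell by similar amounts, at -1.19 ± 0.057 and -1.14 ± 0.078. SPIB, an ETS factor of germinal centre B cells, went the other way, from 49.5, 52.3 and 52.1 CPM to 128, 131 and 129.7 CPM (1.33 ± 0.032). BATF, which is not in the list and pairs with IRF4 at composite sites, rose from 7.03 ± 0.55 CPM to 25.3 ± 0.4 CPM (1.86 ± 0.077). No FX1 value of these 5 genes fell within the range of its DMSO values, which for BATF was a condition of its choice. Such a lack of overlap held for 70.2% of all tested genes, so it is not particular to these 5.

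Surface and assembly genes of B cells gave a mixed picture. Among 14 B-cell markers 6 rose and 5 fell (median 0.01): the inhibitory receptors CD72 and CD22 fell at -1.71 ± 0.049 and -1.0 ± 0.014 and the coactivator gene POU2AF1 at -0.60 ± 0.015, while CD37 rose by 0.41 ± 0.023. VPREB3, a chaperone of immunoglobulin assembly, stood at 24.7, 23.8 and 22.2 CPM with DMSO and at 2.64, 2.53 and 2.34 CPM with FX1 (-3.23 ± 0.096). Immunoglobulin constant genes and their assembly partners rose in 10 and fell in 9 of 20 cases, VPREB3 among the latter, with IGHM rising from 2402 ± 23.9 CPM to 3817 ± 24.9 CPM (0.67 ± 0.01), IGKC rising by 0.69 ± 0.026 and IGHG2 falling at -0.69 ± 0.097. Immunoglobulin constant genes resemble each other, so reads may be shared among them.

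Receptors that place B cells within the germinal centre were lower as a group. Of 21 tested migration and confinement genes 15 fell and 5 rose (median -0.37). RGS13, which dampens chemokine receptor signalling in germinal centre B cells, dropped from 399.9, 406 and 401 CPM to 176, 175 and 169 CPM (-1.22 ± 0.018). The integrin chain gene ITGAL fell at -0.92 ± 0.035, RGS2 at -0.77 ± 0.059 and the follicle homing receptor CXCR5 at -0.67 ± 0.023.

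Chemokine genes of a cluster on chromosome 17 rose together. CCL3 (chromosome 17, 36088256 to 36090169) stood at 16, 16.5 and 16.1 CPM with DMSO and 88.5, 84.8 and 88.3 CPM with FX1 (2.43 ± 0.048), and CCL4 (chromosome 17, 36103827 to 36105621) at 3.04, 4.72 and 4.59 CPM and 23.7, 22.6 and 24.4 CPM (2.49 ± 0.095). The neighbouring copies CCL4L2 and CCL3L3 rose by 2.25 ± 0.049 and 1.82 ± 0.027. These chemokines are secreted by stimulated B cells and attract T cells and monocytes, and the copies are so alike that reads may be shared between them. CCL22, a chemokine for T helper cells, moved the other way, from 66.5 ± 2.9 CPM to 11.7 ± 0.84 CPM (-2.51 ± 0.051).

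Genes of NF-kB, calcium and cytokine receptor signalling changed by less than 2-fold with few exceptions. Among 27 NF-kB subunit, inhibitor and kinase genes 16 rose and 7 fell (median 0.22), without any that reached 2-fold. The inhibitor genes NFKBIB and NFKBID rose by 0.94 ± 0.046 and 0.92 ± 0.063. REL, the NF-kB subunit of germinal centre B cells, and BIRC3, an inhibitor of apoptosis, fell at -0.89 ± 0.022 and -0.83 ± 0.013. Calcium and phosphoinositide genes split 15 to 13 of 34, with the calcium channel genes ORAI2 and ORAI1 higher by 0.84 ± 0.021 and 0.77 ± 0.066 and the kinase gene PDPK1 higher by 0.92 ± 0.036. Cytokine receptor, STAT and SOCS genes split 12 to 10 of 29, with IL12RB1 higher by 0.95 ± 0.079 and IL4R, PTPN6 and CD70 lower at -0.95 ± 0.053, -0.83 ± 0.028 and -0.76 ± 0.03. In that list 2 genes fell at least 2-fold, and its lowest log2 fold change was -3.58.

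Interferon signalling and response genes rose more often than they fell, 21 against 6 of 40 tested (median 0.22). The 5 that rose at least 2-fold, IFIT2, IFIT3, OAS1, IFI35 and IFI44L, all lay at low levels and are named here because they make up that count. Of the fallers 1 fell at least 2-fold. The lowest log2 fold change in the list was -2.68 and the highest 1.45. IFIT2, which binds foreign RNA and was singled out after its values were seen, averaged 1.84 ± 0.18 CPM with DMSO and 5.08 ± 0.34 CPM with FX1. At higher levels the RNA sensor gene IFIH1 rose by 0.56 ± 0.042 and the nuclear body genes SP100 and SP110 by 0.61 ± 0.037 and 0.53 ± 0.043. IRF5, also at a low level, rose by 0.74 ± 0.15, from 2.6 ± 0.12 CPM to 4.28 ± 0.69 CPM. MHC class I and peptide transport genes split 9 to 9 of 19 (median -0.08, 0.02 with the GC trend removed): the peptide transporter genes TAP2 and TAP1 rose by 0.88 ± 0.026 and 0.72 ± 0.038 and the immunoproteasome gene PSMB10 by 1.32 ± 0.10, whereas HLA-F fell at -0.96 ± 0.065.

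The oxidant response was the most uniform of the lists that rose. All 16 tested NRF2 target genes were higher with FX1 (median 1.27), 9 of them by at least 2-fold. NQO1 (ENSG00000181019.13, chromosome 16, 69706996 to 69726668), a quinone reductase, stood at 22.9, 23.4 and 20.8 CPM with DMSO and 200.2, 197 and 203 CPM with FX1. Its log2 fold change was 3.15 ± 0.034, OSGIN1, an oxidative stress response gene, changed by 3.14 ± 0.14, and for NQO1 each FX1 library lay far above each DMSO library. NRF2 binds antioxidant response elements with the core letters TGACNNNGC. Among 10551 tested genes with a RefSeq promoter (GRCh38.p14, the 250 bases before each listed start, both strands), 16.1% held that core, and of the 10 matched NRF2 target genes 3 did. Among genes called higher by at least 2-fold the share was 18.6% and among those lower 15.7%. The windows around it are shown because they carry the list's known element. Capitals mark the core, read 5′ to 3′ on the gene's strand, and in GCLM and PGD it lies on the other strand:
TXNRD1 (chr12:104215655-104215713, plus strand): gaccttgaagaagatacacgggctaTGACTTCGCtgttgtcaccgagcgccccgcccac
GCLM (chr1:93909431-93909489, minus strand): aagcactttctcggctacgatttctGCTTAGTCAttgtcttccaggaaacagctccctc
PGD (chr1:10398838-10398896, plus strand): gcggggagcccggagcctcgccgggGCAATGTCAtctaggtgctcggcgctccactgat

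The 3 genes shown rose by different amounts. TXNRD1, thioredoxin reductase, went from 229.6, 229 and 228 CPM to 834, 846 and 828 CPM (1.87 ± 0.015), and GCLM, a subunit of the enzyme that limits glutathione synthesis, from 53, 53.6 and 50 CPM to 131, 128 and 125 CPM (1.29 ± 0.032). PGD, an NADPH source in the pentose phosphate pathway, averaged 632 ± 7 CPM and 812 ± 2.6 CPM (0.36 ± 0.013). The wider list of glutathione, thioredoxin and NADPH genes held 26 risers and 11 fallers of 43 (median 0.19). CHAC1, which breaks glutathione down, fell at -1.19 ± 0.077.

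Regulators of NRF2 moved too. Of 16 tested, 10 rose and 6 fell, and the autophagy receptor gene SQSTM1, whose protein binds KEAP1, went from 87.7, 85.4 and 93.6 CPM to 657, 659.8 and 658 CPM (2.89 ± 0.018). KEAP1 RNA rose by 0.89 ± 0.037 and the small MAF partner gene MAFG by 0.85 ± 0.048, while NFE2L3, a relative of NRF2, fell at -0.71 ± 0.037. NFE2L2, which encodes NRF2 and was also chosen after its values were seen, rose by 0.17 ± 0.031.

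Detoxifying enzymes and exporters rose in 18 and fell in 3 of 27 cases (median 0.44). The quinone reductase NQO2 rose by 1.18 ± 0.049 and the exporter gene ABCC5 by 0.80 ± 0.043, and the carbonyl reductase gene CBR4 fell at -1.39 ± 0.041. AKR1C3 (chromosome 10, 5035354 to 5107686), an aldo-keto reductase, had 0 counts in all 3 DMSO libraries and 119, 65 and 109 counts in the FX1 libraries. Against a floor of 3 counts over the DMSO group it was at least 75.2-fold higher. AKR1C family genes are alike, so some of its reads may belong to relatives.

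Both ferritin genes, which store iron, rose. The ferritin heavy chain gene FTH1 stood at 770.3, 774 and 772 CPM with DMSO and 2666, 2699 and 2684 CPM with FX1 (1.80 ± 0.012), and the light chain gene FTL at 379, 378 and 379 CPM and 876, 907 and 901 CPM (1.24 ± 0.014). The transferrin receptor gene TFRC rose as well, by 0.83 ± 0.014, and the haem transporter gene SLC48A1, outside the list, by 2.09 ± 0.045. SLC39A8, a zinc and iron importer, fell at -0.75 ± 0.022. Over the whole list 18 of 35 rose and 7 fell (median 0.07, 0.18 with the GC trend removed). Ferritin genes have many processed copies, and how reads shared with them were counted is not stated.

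Among metallothioneins and zinc transporters 12 of 18 rose and 2 fell, with the zinc transporter genes SLC39A13 and SLC30A6 higher by 0.89 ± 0.085 and 0.53 ± 0.041 and the metal sensor gene MTF1 by 0.53 ± 0.044. Selenoprotein genes and their translation factors rose in 8 and fell in 4 of 15 cases. MSRB1, which repairs oxidised methionine, rose by 1.21 ± 0.062, SELENOO by 0.91 ± 0.069 and the selenocysteine elongation factor gene EEFSEC by 0.67 ± 0.072.

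Genes of the proton pump that acidifies lysosomes rose almost throughout. Of 19 V-ATPase genes 17 rose and 1 fell (median 0.54), against 33.8% of all tested genes higher. ATP6V0A1 stood at 55.5, 58.1 and 54.9 CPM with DMSO and 146, 149 and 149 CPM with FX1 (1.39 ± 0.029). The membrane sector genes ATP6V0B and ATP6V0D1 rose by 1.35 ± 0.033 and 1.31 ± 0.048, from 45.6 ± 1.8 and 20.5 ± 0.65 CPM to 115 ± 2.7 and 51.1 ± 0.65 CPM. The single faller was ATP6V1G2, a neuronal subunit gene at low level, which averaged 3.19 ± 0.85 CPM with DMSO and 1.26 ± 0.11 CPM with FX1.

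Other parts of the degradation machinery rose less or moved in both directions. Lysosomal hydrolase and membrane genes held 28 risers and 11 fallers of 45 (median 0.24), led by the aspartic protease CTSD, from 22.3, 22.4 and 23.6 CPM to 57.6, 59.5 and 58.3 CPM (1.36 ± 0.044), the sphingolipid activator PSAP (1.14 ± 0.014) and the calcium channel gene MCOLN1 (0.93 ± 0.076). Autophagy genes rose in 21 and fell in 16 of 41 cases (51.2% and 39.0%). The shares were 33.8% and 34.6% over all tested genes, and 48.4% and 39.6% in the highest of 4 equal groups by mean level. TOLLIP, an adaptor of selective autophagy, and ATG4D and ATG2A, which work on autophagosome growth, rose by 1.1 ± 0.042, 1.24 ± 0.067 and 0.94 ± 0.049, while the mitophagy receptor gene BNIP3L fell from 111 ± 2.7 CPM to 35.1 ± 2.2 CPM (-1.65 ± 0.036). Proteasome genes rose in 33 and fell in 12 of 49 cases (median 0.20), with higher levels of the ATPase subunit gene PSMC4 at 0.95 ± 0.031 and the ubiquitin receptor gene ADRM1 at 0.83 ± 0.039.

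**Figure D2:**
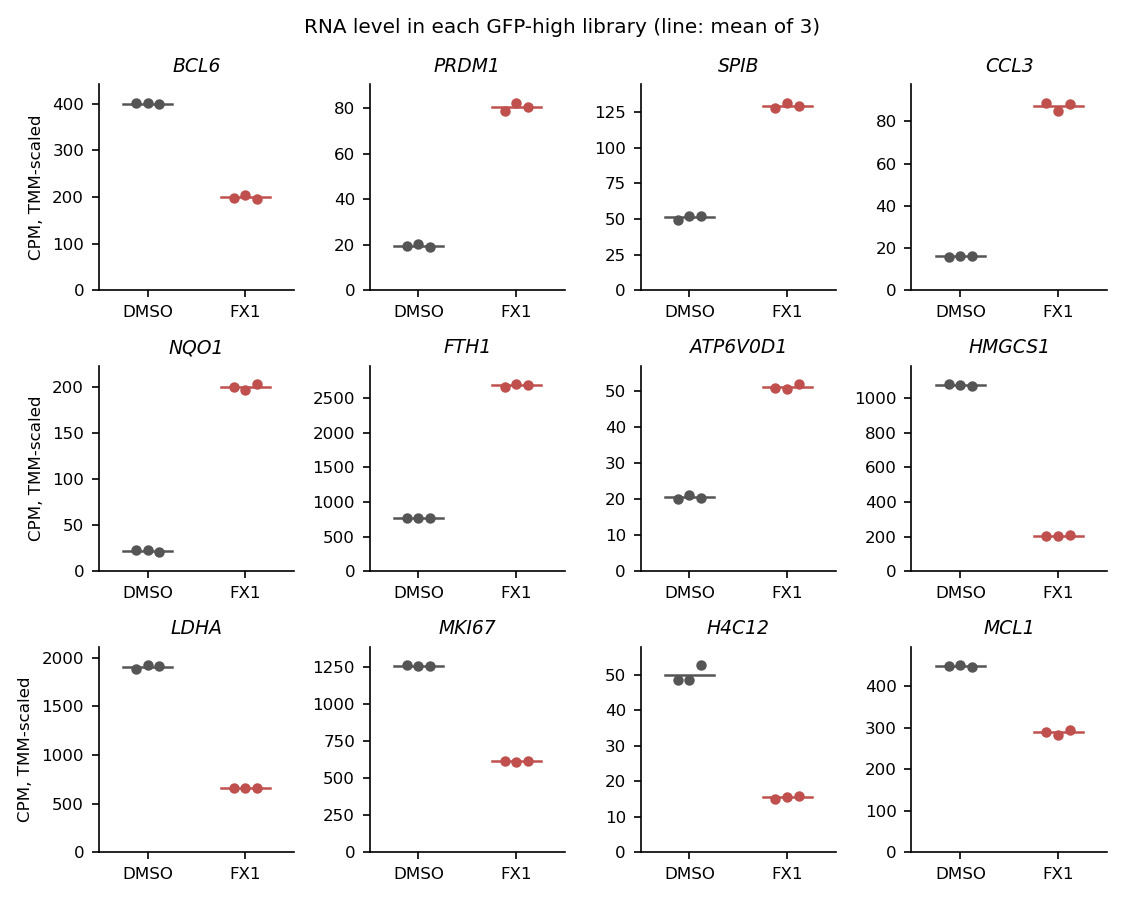
RNA level of 12 genes in each GFP-high library (points, vertical axis in TMM-scaled CPM from 0) with DMSO in grey and FX1 in red, and the mean of 3 libraries as a line. The points of a group lie close to their mean, with NQO1 rising to between 197 and 203 CPM and HMGCS1 falling to between 202 and 210. The 2 groups do not overlap for any of the 12 genes, which holds for 70.2% of all tested genes. For CCL3 it was a condition of its choice.

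Sterol synthesis genes fell in 19 of 21 cases with no riser (median -1.07). HMGCS1, an early enzyme of the pathway, went from 1079, 1074 and 1068 CPM to 203, 202 and 210.5 CPM (-2.39 ± 0.015), and FDPS and HSD17B7 fell at -1.74 ± 0.02 and -1.46 ± 0.046. The sterol regulatory element letters TCACNCCAC lay in 0 of 16 matched promoters of these genes and in 1.12% of tested genes' promoters, which says only that these letters are not in that window. Regulators of sterol supply did not share one direction, with 9 higher and 11 lower of 25. ACAT2 fell most, from 259 ± 3.7 CPM to 65.2 ± 1.9 CPM (-2.00 ± 0.024). STARD4, a sterol carrier, and INSIG1, which retains SREBP in the endoplasmic reticulum, fell at -1.22 ± 0.022 and -0.81 ± 0.014, whereas SCAP, the SREBP escort, rose by 0.94 ± 0.037.

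Fatty acid genes divided between synthesis and breakdown. In synthesis and desaturation 13 of 23 fell and 6 rose (median -0.36, -0.47 with the GC trend removed). The desaturase SCD went from 1936, 1962 and 1956 CPM to 641, 640 and 644 CPM (-1.6 ± 0.012), and FADS1, ACLY and ELOVL6 fell at -1.30 ± 0.039, -0.99 ± 0.013 and -0.75 ± 0.025. In oxidation and peroxisome genes 23 of 42 rose and 12 fell (median 0.17). Among these the peroxisomal oxidase ACOX3 rose by 0.97 ± 0.072, the coactivator gene PPARGC1B by 0.95 ± 0.022 and the carnitine carrier gene SLC25A20 by 0.85 ± 0.059. Whether synthesis and breakdown genes differ was not tested, since the lists were described and not tested.

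Hypoxia and glycolysis genes were lower in 22 and higher in 3 of 27 cases (median -0.81), 11 of them by at least 2-fold. NDRG1, a hypoxia-responsive gene, fell most, standing at 16.6, 16.6 and 15.6 CPM with DMSO and 0.353, 0.171 and 0.148 CPM with FX1 (-6.12 ± 0.18). LDHA, lactate dehydrogenase, stood at 1909 ± 17.3 CPM and 664 ± 1 CPM (-1.52 ± 0.012), and outside the list the glucose transporter gene SLC2A3 at 41.6 ± 1.6 CPM and 9.82 ± 0.38 CPM (-2.08 ± 0.06). HIF factors bind the core letters ACGTG. These lay in the upstream windows of 16 of 24 matched genes of the list (66.7%), against 28.6% of all tested genes with a promoter. Among genes called lower by at least 2-fold the share was 27.6% and among those higher 22.9%. The windows of 3 genes that fell are shown for that element, with each match in capitals; in ANKRD37 and PFKFB3 the capitals hold CACGTG, which reads the same on both strands and is also the E-box of other factors:
ANKRD37 (chr4:185396673-185396727, plus strand): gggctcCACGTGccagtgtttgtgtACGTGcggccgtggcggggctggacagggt
ALDOC (chr17:28576896-28576948, minus strand): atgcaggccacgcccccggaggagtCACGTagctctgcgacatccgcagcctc
PFKFB3 (chr10:6202800-6202854, plus strand): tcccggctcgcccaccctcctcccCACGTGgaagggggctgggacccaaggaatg

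PFKFB4, a relative of PFKFB3, fell from 164, 167 and 162 CPM to 10.7, 11 and 8.47 CPM (-4.03 ± 0.04). ANKRD37 fell from 12.5, 11.1 and 11.6 CPM to 1.88, 1.84 and 1.9 CPM (-2.64 ± 0.12) and the glycolytic aldolase ALDOC from 229, 236 and 232 CPM to 52.4, 52.4 and 50.1 CPM (-2.17 ± 0.025). PFKFB3 makes the activator of phosphofructokinase and averaged 115 ± 0.35 CPM with DMSO and 36 ± 1 CPM with FX1 (-1.67 ± 0.033). Among pyruvate entry and tricarboxylic acid cycle genes 16 of 33 fell and 12 rose (median -0.02), but with the GC trend removed 10 fell and 15 rose (median 0.05). PDK1, which shuts pyruvate out of the cycle, fell from 292 ± 2.1 CPM to 103 ± 1.9 CPM (-1.51 ± 0.021) and SUCLG2 from 60.1 ± 2.1 CPM to 27.5 ± 0.31 CPM (-1.13 ± 0.044), and the pyruvate dehydrogenase phosphatase genes PDP2 and PDP1 fell at -0.64 ± 0.033 and -0.60 ± 0.05.

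Protein-coding transcripts of the mitochondrial genome and nuclear genes of the same complexes moved apart. The mitochondrial genome gave 7.88%, 7.91% and 7.84% of counts in the DMSO libraries and 4.23%, 4.28% and 4.32% in the FX1 libraries. All 13 of its protein genes fell (median -1.09, or -0.78 with the GC trend removed), 7 of them by at least 2-fold. MT-CO2, a cytochrome oxidase subunit, went from 8390, 8347 and 8335 CPM to 3643, 3549 and 3682 CPM (-1.21 ± 0.01), and MT-ATP8 from 2039, 2096 and 1966 CPM to 637, 648 and 638 CPM (-1.67 ± 0.031). The smallest fall among the protein genes was in MT-ND1, at -0.65. Over all 36 tested genes of the mitochondrial genome 14 rose and 16 fell (median 0.39, or 0.73 with the GC trend removed). Nuclear genes of complex I rose in 20 and fell in 5 of 37 cases (median 0.16), and those of complexes II to V in 30 and 6 of 43 (median 0.19). The ATP synthase ring gene ATP5MC1 rose by 0.80 ± 0.037, UQCR11 by 0.69 ± 0.053 and NDUFA11 by 0.89 ± 0.068, while UQCRB fell at -0.52 ± 0.017.

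In the GFP-low gate the same mitochondrial genes changed less with FX1. Their median there was -0.03, with 6 lower, 5 higher and 2 not called, and the test of the difference between gates was called for all 13 genes. MT-CO2 averaged 8357 CPM in GFP-high DMSO and 3624 CPM in GFP-high FX1, against 4210 and 4387 CPM in the GFP-low gate. For this gene the GFP-high DMSO libraries stood apart from the other groups by their higher level. MT-ND6, the one gene of the list on the other mitochondrial strand, fell in both gates, at -0.82 ± 0.02 and -0.68 ± 0.021. In the GFP-low gate the mitochondrial genome gave 4.73%, 4.72% and 4.84% of counts with DMSO and 5.09%, 5.05% and 5.13% with FX1.

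**Figure D3:**
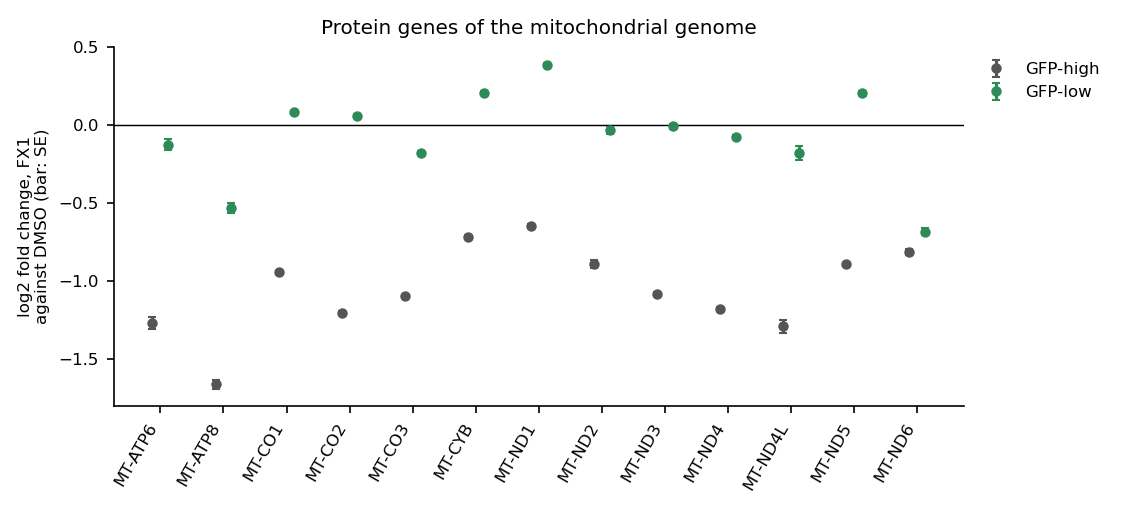
Log2 fold change between FX1 and DMSO (vertical axis, points, with the SE as a bar that is often smaller than the point) for the 13 protein genes of the mitochondrial genome in the GFP-high and GFP-low gates. The GFP-high points lie between -1.67 and -0.65 and the GFP-low points between -0.68 and 0.39.

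Mitochondrial ribosomal protein genes split 29 to 27 of 77 (median -0.03, turning to 0.07 with the GC trend removed). MRPL12 rose most, from 14.5, 13 and 13.6 CPM to 35.5, 32 and 31 CPM (1.27 ± 0.061), followed by MRPS17 and MRPS12 at 0.86 ± 0.079 and 0.82 ± 0.051, and MRPL46 fell at -0.61 ± 0.10. Cytosolic ribosomal protein genes fell in 54 and rose in 24 of 87 cases, by little (median -0.13), and with the GC trend removed 43 fell and 35 rose (median -0.06). Their sum was 6.05% ± 0.0386 of counts with DMSO and 5.86% ± 0.0149 with FX1 (SD, n = 3). The largest falls among them with a sizeable level were in RPL36A (-0.90 ± 0.067), RPL22L1 (-0.87 ± 0.047) and RPS26 (-0.83 ± 0.062). Ribosomal protein genes have many processed copies, so their counts are uncertain.

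Genes that make and import amino acids were examined next. Serine, glycine and one-carbon enzymes fell in 21 and rose in 7 of 29 cases (median -0.43). ASNS, asparagine synthetase, went from 15.4, 15 and 17.6 CPM to 5.74, 5.88 and 5.6 CPM (-1.47 ± 0.086), and the cysteine-making enzyme CTH and the thymidylate synthase TYMS fell at -1.11 ± 0.093 and -0.90 ± 0.038, while the folate carrier gene SLC19A1 rose by 0.69 ± 0.048. Cytosolic aminoacyl-tRNA synthetases fell in 16 and rose in 5 of 24 cases (median -0.16, -0.05 with the GC trend removed). GARS1, EPRS1 and WARS1 were lower at -0.67 ± 0.014, -0.68 ± 0.013 and -0.74 ± 0.019, and FARSA was higher by 0.96 ± 0.028. Amino acid transporter genes rose in 19 and fell in 4 of 27 cases (median 0.33). SLC43A2 rose from 20.9, 16.5 and 18.4 CPM to 52.4, 52 and 52.7 CPM (1.51 ± 0.049), the glutamate carrier gene SLC25A22 by 1.11 ± 0.043 and the leucine transporter gene SLC7A5 by 0.95 ± 0.016.

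Translation factor genes split 21 to 21 of 47, and the paralogues of the helicase eIF4A went opposite ways, EIF4A1 higher by 0.74 ± 0.035 and EIF4A2 lower at -0.64 ± 0.014. EIF6, which keeps ribosomal subunits apart, rose by 1.16 ± 0.041. Of 31 nucleotide synthesis genes 12 rose and 15 fell (median -0.03), turning to 14 and 11 with the GC trend removed (median 0.03). IMPDH1 and UMPS rose by 0.86 ± 0.034 and 0.77 ± 0.039, and the ribonucleotide reductase subunit gene RRM2 and PRPS2 fell at -0.83 ± 0.023 and -0.74 ± 0.028.

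**Figure D4:**
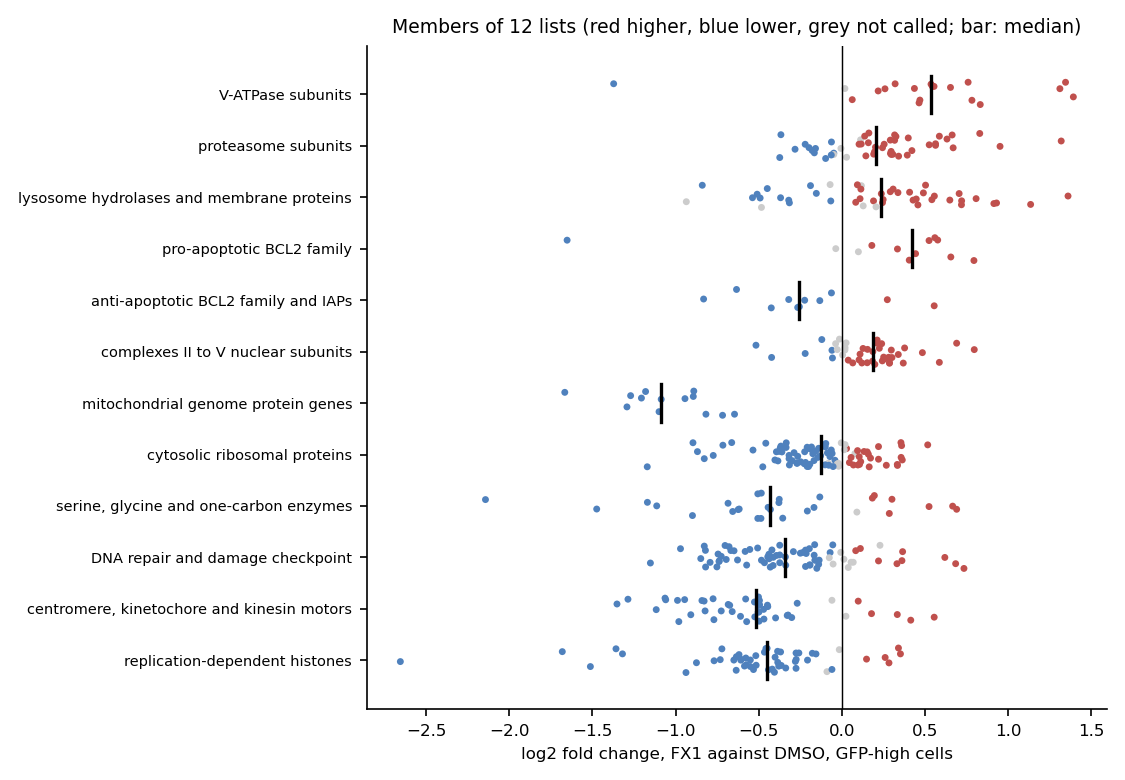
Log2 fold change between FX1 and DMSO in GFP-high cells (horizontal axis) for each tested member of 12 gene lists (points; red higher, blue lower, grey not called) with the list median as a black bar. V-ATPase genes centre on a median of 0.54 and mitochondrial genome protein genes on -1.09. The kinetochore, histone and DNA repair lists lie mostly below 0.

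Genes of dividing cells were lower with FX1. G2/M genes fell in 22 and rose in 1 of 25 cases (median -0.61). MKI67, the proliferation marker, stood at 1259, 1252 and 1255 CPM with DMSO and 618, 609 and 612 CPM with FX1 (-1.03 ± 0.013), and the cyclin gene CCNA2 at 201, 194 and 189.8 CPM and 95, 89.9 and 90.9 CPM (-1.08 ± 0.025). Many late cell cycle promoters carry a cell cycle homology region near the start site, with the letters TTTGAA. They lay in the upstream windows of 13 of 20 matched G2/M genes (65.0%), against 12.4% of tested genes with a promoter. The letters were in 12.7% of all genes called lower by at least 2-fold and in 17.2% of those higher by that much. The windows are shown for that element, in capitals. In CDKN3 it lies on the other strand, and MKI67 holds it in 2 places:
CDKN3 (chr14:54396812-54396867, plus strand): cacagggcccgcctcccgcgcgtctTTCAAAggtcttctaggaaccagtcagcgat
MKI67 (chr10:128126424-128126477, minus strand): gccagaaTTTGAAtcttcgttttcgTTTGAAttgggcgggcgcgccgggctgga
BUB1B (chr15:40161021-40161068, plus strand): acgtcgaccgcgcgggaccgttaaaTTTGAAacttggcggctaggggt

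CDKN3, a phosphatase of cyclin-dependent kinases, and BUB1B, a spindle checkpoint kinase, fell by amounts near that of MKI67, at -1.04 ± 0.045 and -1.02 ± 0.024. Centromere, kinetochore and kinesin genes fell in 39 and rose in 5 of 46 cases (median -0.51). NUF2, a kinetochore component that holds microtubules, went from 76.3, 75.8 and 76 CPM to 28.5, 30.1 and 30.8 CPM (-1.35 ± 0.041), CENPH from 91.5 ± 1.3 CPM to 37.5 ± 0.99 CPM (-1.29 ± 0.037), and CENPI and KIF20B fell at -1.12 ± 0.048 and -1.06 ± 0.027. Core and linker histone genes of S phase fell in 46 and rose in 5 of 53 cases (median -0.45). H4C12 and H4C11 dropped from 50 ± 2.4 and 50.2 ± 2.4 CPM to 15.6 ± 0.4 and 17.6 ± 0.31 CPM. Histone messages mostly lack poly(A) tails, which this ribosomal RNA depletion protocol retains, and histone genes of a family share long identical stretches.

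DNA repair and damage checkpoint genes fell in 54 and rose in 9 of 71 cases (median -0.34), but LIG1 alone of this list fell 2-fold. The repair gene DDB2, outside the list, fell further and is given below. LIG1, which seals replicated DNA, went from 102, 104 and 107 CPM to 48.1, 46.5 and 46.5 CPM (-1.15 ± 0.033). The Fanconi anaemia genes FANCD2 and FANCB and the end-joining gene XRCC4 fell at -0.97 ± 0.024, -0.85 ± 0.059 and -0.83 ± 0.08. E2F site letters, TTTNNCGC, lay upstream of 11 of 62 matched genes of the list (17.7%) and of 11.2% of tested genes. Among genes called lower by at least 2-fold the share was 8.61% and among those higher 6.19%. Cyclin, CDK and inhibitor genes of G1 split 13 to 14 of 29. CCNG2, a cyclin of resting cells, and CCNG1, a p53 target, fell by 1.71 and 1.37 on the log2 scale, and E2F8 and CDKN2D fell at -1.02 ± 0.052 and -0.83 ± 0.12.

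Pro-apoptotic and anti-apoptotic genes of the BCL2 family were listed apart. Of 12 tested pro-apoptotic genes 9 rose and 1 fell (median 0.43, or 0.28 with the GC trend removed). BID, which links death receptors to mitochondria, went from 28.6, 27.9 and 29.9 CPM to 48.7, 50.6 and 50.5 CPM (0.80 ± 0.045), the pore-forming BAK1 from 18.2, 17.8 and 18.8 CPM to 28.4, 28.4 and 29.4 CPM (0.66 ± 0.057), and BIK rose by 0.58 ± 0.092. The faller was BNIP3L. Of 11 anti-apoptotic genes 9 fell and 2 rose (median -0.26). MCL1 stood at 448, 451 and 447 CPM with DMSO and 290.4, 282 and 295 CPM with FX1 (-0.63 ± 0.016), BCL2 fell at -0.42 ± 0.033, and CFLAR, which blocks caspase 8, rose by 0.56 ± 0.031. With the GC trend removed 6 anti-apoptotic genes fell. Death receptor and caspase genes rose in 14 and fell in 3 of 27 cases, with higher levels of the kinase gene RIPK1 at 0.96 ± 0.051, the TRAIL receptor gene TNFRSF10A at 0.77 ± 0.049 and the inflammasome gene NLRP1 at 0.72 ± 0.022. No measure of cell death is in the files.

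**Figure D5:**
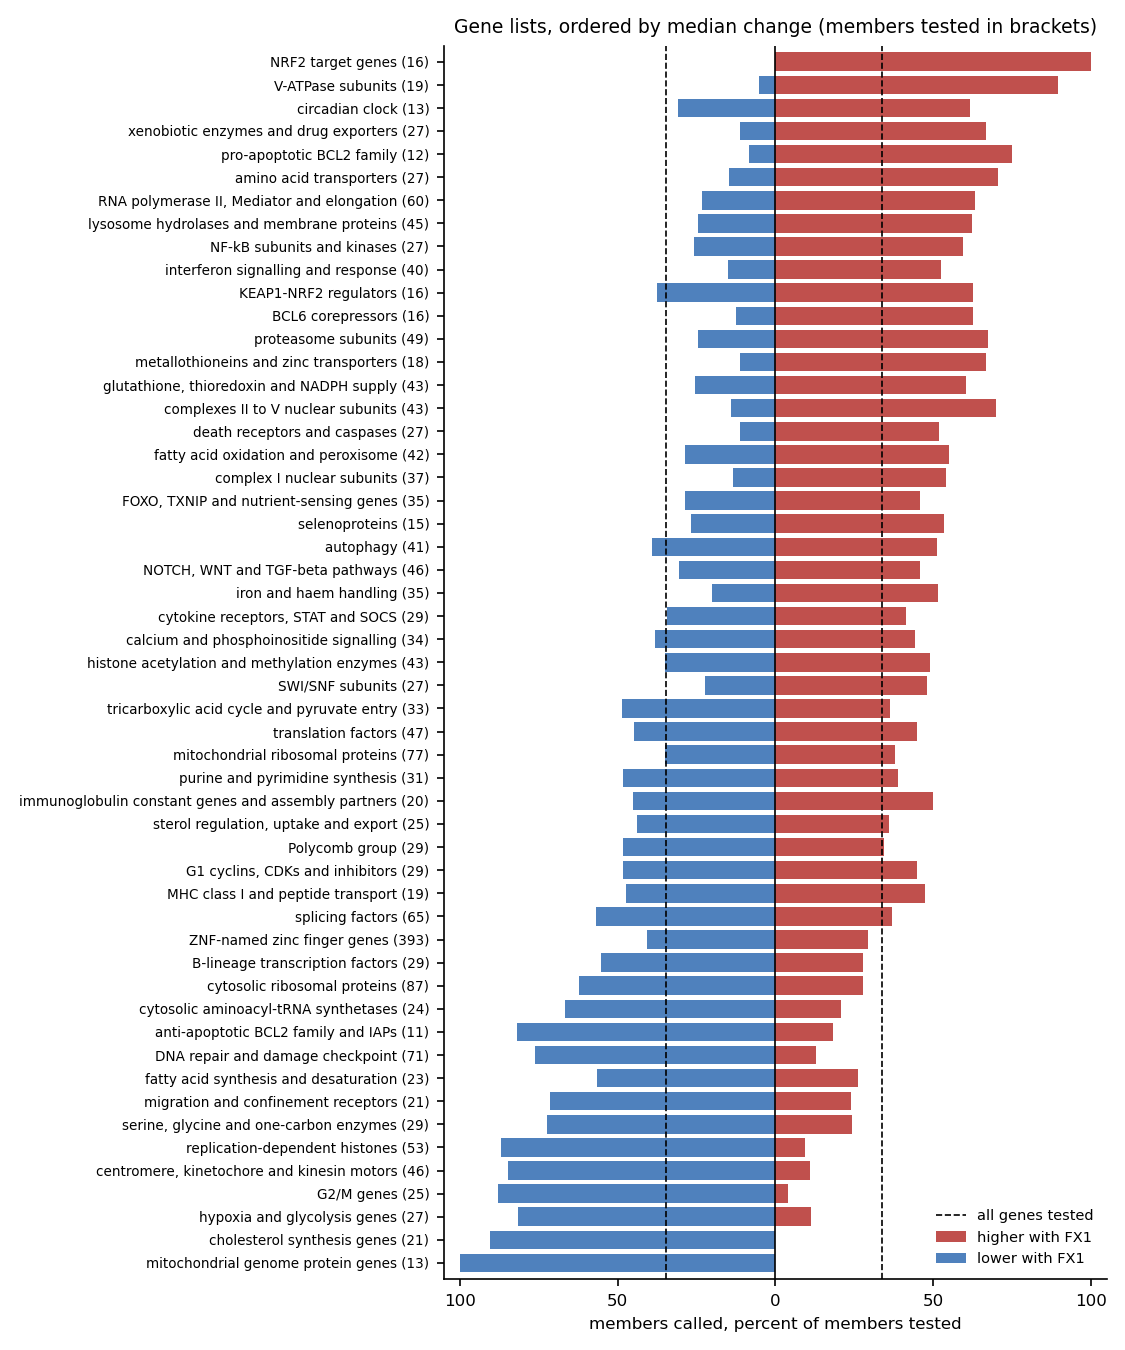
Share of the tested members of each list called higher (red, to the right) or lower (blue, to the left) with FX1 in GFP-high cells (horizontal axis, percent), for gene lists ordered by their median log2 fold change, with the shares over all genes tested as dashed lines. Lists at the top, such as the NRF2 targets and V-ATPase genes, lie beyond the 33.8% of all genes higher. Those at the bottom, such as cholesterol synthesis and mitochondrial genome protein genes, lie beyond the 34.6% lower.

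Nutrient-sensing genes held 16 risers and 10 fallers of 35. FNIP2, a partner of folliculin in mTORC1 control, rose from 0.893, 0.939 and 0.722 CPM to 7.99, 7.31 and 7.61 CPM (3.15 ± 0.17), and MLXIP, which senses glucose products, rose by 0.85 ± 0.027. TXNIP, a brake on glucose uptake, and the glucocorticoid-induced gene TSC22D3 fell at -1.0 ± 0.026 and -1.16 ± 0.036. NOTCH, WNT and TGF-beta pathway genes split 21 to 14 of 46, with the SMAD corepressor genes SKIL and SKI higher by 1.15 ± 0.036 and 0.67 ± 0.036, TGFB1 higher by 0.68 ± 0.026 and HES1 lower at -0.79 ± 0.059. Of 13 tested clock genes 8 rose and 4 fell: the output factor gene TEF rose by 0.74 ± 0.082, and PER3, DBP and NFIL3 fell at -0.92 ± 0.066, -0.87 ± 0.081 and -1.14 ± 0.078.

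In transcription machinery 38 of 60 RNA polymerase II, Mediator and elongation genes rose and 14 fell (median 0.30). POLR2A, the largest subunit, went from 223, 214 and 221 CPM to 465, 458 and 459 CPM (1.07 ± 0.017), and POLR2L, POLR2E and the 7SK capping enzyme gene MEPCE rose by 1.1 ± 0.038, 0.72 ± 0.028 and 0.70 ± 0.04. Splicing factor genes fell in 37 and rose in 24 of 65 cases, but 28 rose and 28 fell with the GC trend removed. SF3B4 and PTBP1 were higher by 0.78 ± 0.042 and 0.62 ± 0.016, and LUC7L3 and the kinase gene CLK4 lower at -0.69 ± 0.019 and -0.64 ± 0.054. Of 393 zinc finger genes with a ZNF name 160 fell and 115 rose (median -0.10), with ZNF276 at 1.61 ± 0.038 and ZNF25 at -2.17 ± 0.092.

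Beyond the lists, called protein-coding genes whose FX1 and DMSO values did not overlap were ranked by their change. Ranks 11 to 35 in each direction are described here, so their lack of overlap comes from the choice. Among the risers CLIP4, a microtubule-binding protein gene, went from 2.59, 2 and 1.95 CPM to 13.8, 13.5 and 13.1 CPM (2.64 ± 0.12), and the collagen gene COL24A1 from 9.15, 9.32 and 9.52 CPM to 53.3, 52.5 and 52.4 CPM (2.50 ± 0.06). FCRL3, an Fc receptor-like protein of B cells, rose from 74, 72.8 and 74.6 CPM to 321, 319.9 and 326 CPM (2.13 ± 0.023). The tyrosine kinase gene TXK, SH3TC1, the plexin gene PLXNA1 and the CREB coactivator gene CRTC1 rose by 2.36 ± 0.15, 2.10 ± 0.048, 1.75 ± 0.034 and 1.97 ± 0.1. The surface receptor genes SLAMF7 and CD83 rose by 1.63 ± 0.055 and 1.59 ± 0.017. The chaperone gene HSPA1B rose by 1.79 ± 0.034 and the phosphatase gene DUSP5 by 1.77 ± 0.038, and SAMD9L, TLCD1 and the readthrough gene P2RX5-TAX1BP3 by 1.98 ± 0.14, 1.62 ± 0.06 and 1.67 ± 0.08. HSPA1B has a near-identical copy, and a readthrough gene overlaps the genes it joins.

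Among the fallers of the same ranks were early response genes. EGR1 stood at 101, 104 and 97.8 CPM with DMSO and 17.3, 17.5 and 14.7 CPM with FX1 (-2.61 ± 0.044), JUN at 48.2, 47.9 and 46.9 CPM and 10.5, 11.9 and 10.8 CPM (-2.12 ± 0.057), and the phosphatase gene DUSP1 at 21.1, 23.4 and 20.9 CPM and 5.65, 4.47 and 3.61 CPM (-2.25 ± 0.087). These genes respond within minutes to signals. KDM7A, a histone demethylase gene, fell from 50.4 ± 0.28 CPM to 9.2 ± 0.69 CPM (-2.45 ± 0.059), and DDB2, a p53-induced gene of nucleotide excision repair, from 97.2 ± 2.4 CPM to 20 ± 1.5 CPM (-2.28 ± 0.041). RETREG1, a receptor for autophagy of the endoplasmic reticulum, fell at -2.62 ± 0.081, the protease gene TMPRSS3 at -2.42 ± 0.054, the troponin gene TNNI1 at -2.31 ± 0.046 and CNTN4 at -2.29 ± 0.093. PDLIM1, CCDC85C, MST1, EFNA3, DYNLT2, SCN4A, ASB2, FGFRL1 and DACT3 fell by between 2.08 and 2.46 on the log2 scale.

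Among the 50 genes with the highest mean CPM in the DMSO libraries, IGHM and the signal recognition particle RNA RN7SL1 rose most. RN7SL1 stood at 1912, 1731 and 1970 CPM with DMSO and 3306, 3036 and 3490 CPM with FX1 (0.81 ± 0.077), and this short RNA has many near-identical copies. The chaperone genes HSP90AA1 and HSPA8 rose by 0.27 ± 0.011 and 0.25 ± 0.01. The largest falls in that set were MT-ATP8, SCD, LDHA, MT-ND4L and MT-ATP6.

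Genes with 0 counts in all 3 libraries of one group and at least 10 counts in each library of the other were counted apart. Besides AKR1C3, TMC2, CLEC18A and a gene without a symbol met this limit with 0 counts in DMSO. TMC2 gave 61, 20 and 50 counts with FX1, at least 33.1-fold higher against the floor of 3 counts over the group. In the other direction 5 genes met it, with 0 counts in FX1, among them LINC01447 and PLS3-AS1, which had 11 to 19 counts in each DMSO library and were at least 19.7-fold and 21-fold lower. At such depth a count of 0 does not show that a gene is silent.

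The GFP-low gate offers the same contrast in 6 other libraries. There 12138 genes were called (68.0%), and 5583 genes passed the test of whether FX1 acted differently in the gates (31.3%). Against a floor of 1.5-fold, 151 genes passed it. The response of the chemokine genes was smaller in the GFP-low gate, CCL3 changing by 0.96 ± 0.059 there against 2.43 ± 0.048 in the GFP-high gate. RGS13 and INSIG1 fell more in GFP-low cells, at -2.03 ± 0.021 and -1.56 ± 0.015. BCL6 fell less there, at -0.64 ± 0.018 against -1.01 ± 0.018, and MRPL12 rose by 0.28 ± 0.053 against 1.27 ± 0.061. The test of the difference was called for each of these 5 genes. For V-ATPase genes the medians were 0.54 and 0.44 and for NRF2 target genes 1.27 and 0.98, in GFP-high and GFP-low cells, without a test of the lists.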

How the data were processed

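RNA was measured in 12 libraries of Raji cells, 6 of which form the comparison. Per the labels' protocols, total RNA was extracted with RNeasy Plus Micro and libraries were made with KAPA RNA HyperPrep with RiboErase. FastQC, STAR, featureCounts of Subread, R 4.2.1 and hg38 are named in the submitters' processing notes, without settings. The deposited values are raw read counts per gene, and a gene length column, per the file headers. Reads carried no molecular identifiers that the sources mention, so precision is that of counting and of the library spread.

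Of 60710 lines, 3 from a broken record were left out and 60707 genes used. No count column lacked a sample. Genes passing filterByExpr (17859) were fitted with edgeR 4.0.16 (TMM scaling, robust quasi-likelihood, 4 group coefficients over 12 libraries, 8 residual degrees of freedom, R 4.3.3), with Benjamini-Hochberg adjustment over all tested genes and a threshold of 0.05. CPM is TMM-scaled. The fit was also run on simulated counts in which few genes changed. Most tested genes were called in the real data, so that run cannot check the scaling or the calls made here. Gene types came from GENCODE release 29 labels.

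The members and the 58 gene lists were chosen with earlier results of these data known. Named genes (286) were BCL6, PRDM1, SMARCA4 and SMARCA2; up to 4 called members of each list with the largest changes and a mean log2 CPM at or above 2; ranks 11 to 35 of protein-coding genes in each direction; the 5 largest rises and falls among the 50 highest genes; and up to 5 genes at 0 in one group. Ranked genes had to be called, with a mean log2 CPM at or above 2, no placeholder symbol and no overlap between the groups. Up to 3 genes a motif were named for their promoter. Some genes and 1 list that meet the rule are not reported here. Promoters came from RefSeq GRCh38.p14 and matched 10551 tested genes (59.1%), and motifs were sought on both strands of the 250 bases before each start. Alternatives were DESeq2 1.42.0 and its size factors, other filters, GFP-high libraries alone, a replicate block, mitochondrial and dominant genes left out, a GC and length trend removed, a 1.5-fold floor, and each library left out.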

Additional observations from a re-analysis of the deposited data

Results flagged for a closer look

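For the following genes, taken from those named by rule, the test of the difference between gates (the FX1 effect in GFP-low minus that in GFP-high cells, log2) was called by edgeR and the difference was more than 2-fold. The difference was -1.47 for CCL3, -1.36 for CCL4, -1.34 for CCL4L2 and -1.09 for CCL3L3, so these chemokine genes rose more in GFP-high cells. It was 1.39 for FOSB and 1.23 for FOS, early response transcription factor genes that fell in GFP-high cells by 4.80 and 4.84 on the log2 scale. It was 1.05 for CCDC144NL, which averaged 14 ± 0.32 CPM with DMSO and 1.35 ± 0.19 CPM with FX1 in GFP-high cells.

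Among genes of the mitochondrial genome the difference was 1.26 for MT-CO2, 1.15 for MT-ATP6, 1.13 for MT-ATP8 and 1.11 for MT-ND4L. In GFP-high cells these 4 genes fell with FX1. Outside the naming rule 5 further protein genes of the mitochondrial genome had a called difference above 2-fold. It was 1.1 for MT-ND4 and MT-ND5, 1.08 for MT-ND3 and 1.03 for MT-ND1 and MT-CO1.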

How the results depend on the processing

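With a 1.5-fold floor 3674 genes were called (1454 higher, 2220 lower), 3606 in GFP-low cells and 151 for the difference between gates, since that test asks more of each gene, and 38 named genes lost the call. With at least 50 counts in at least 3 libraries 1320 genes passed 2-fold against 3035, since fewer low genes were tested. Leaving out 1 library at a time gave 11475 to 11801 called genes, 5713 to 5920 higher, 5762 to 5942 lower, 2974 to 3122 at 2-fold, 12227 to 12293 in GFP-low cells and 5194 to 5409 for the difference between gates. DESeq2 called 11544 genes, and 11542 of the 12224 genes were called in the same direction by both tools. With the GC and length trend removed, which moved the median of all genes by 0.05, 12043 genes were called (6509 higher, 5534 lower), and 10730 of 12047 tested genes kept call and direction.

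SMARCA4 turned from 0.03 to -0.23 with that trend removed and was called; it was also called with DESeq2's size factors and without DMSO replicate 1 or FX1 replicate 1. The myeloid marker median, over few genes, turned from -0.05 to 1.00 under the stricter filter and ranged from -0.37 (without GFP-high FX1 replicate 3) to 0.11 (without GFP-high DMSO replicate 2), and the epithelial and stromal median from 0.52 to -0.12 under the stricter filter; the cause was not tested. The replicate block gave 12184 calls, 12148 of them shared in direction. Same-numbered libraries did not deviate together (correlations of -0.0183, -0.0141 and 0.0087 over 10467 genes). With a spread this near to that of read sampling, these correlations cannot tell whether the numbers pair the samples. The mitochondrial genome list has no value with its genes left out. None of the 285 called named genes lost its call when any 1 GFP-high library was left out.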
